A study of Homo sapiens with 12 samples.

Results

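Several miRNA tied to organs of endodermal origin were followed through cardiac differentiation, namely hsa-miR-122-5p, hsa-miR-375-3p, hsa-miR-192-5p, hsa-miR-194-5p, hsa-miR-483-3p and hsa-miR-483-5p. They are 6 of the 1133 miRNA listed in the deposited miRNA counts. The 6 were chosen by name, and they were selected on levels and fold changes already seen in the same 12 libraries, so that their values are given as a description. The question they address is whether cells of endodermal fate contributed to the vesicles released during cardiac differentiation.

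Small RNA was sequenced from extracellular vesicles (EV) of the established human induced pluripotent stem cell (hiPSC) line iPS(IMR90)-4, with 3 independent cultures at each of 4 stages. The hiPSC-EV came from undifferentiated cells at day 0, in TeSR-E8 expansion medium conditioned for 24 h. The CPC-EV came from cardiac progenitor cells at day 6, conditioned for 72 h in RPMI with B27 lacking insulin and with the Wnt inhibitor IWR1, after induction with CHIR99021 and Activin A. The CMi-EV came from 3D aggregates of immature cardiomyocytes at day 15, in RPMI with B27 conditioned for 48 h. The CMm-EV came from aggregates of more mature cardiomyocytes at day 35, conditioned for 48 h in glucose-free medium with galactose, oleic acid and palmitic acid. Stage, medium and hours of conditioning changed together, so their parts cannot be told apart, and all groups share 1 cell line.

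In cardiac protocols, Activin and Wnt signals first give mesendoderm, from which both cardiac mesoderm and definitive endoderm arise. miR-122 is the dominant miRNA of hepatocytes, miR-375 is high in pancreatic islets and other endocrine and epithelial cells, and miR-192 and miR-194 are joined in clusters that are active in gut epithelium, liver and kidney. miR-483 lies within IGF2, an imprinted growth factor gene active in fetal liver and also in mesodermal tissues. The paper on these libraries ties miR-483 to the forming mesoderm, and miR-375 to definitive endoderm.

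Mature sequences of 4 of the 6 miRNA were matched in RefSeq (GRCh38.p14) and are shown because the seed, bases 2 to 8 in capitals, sets the targets of a miRNA and tells how easily reads of related miRNA are mixed. The first 3 each carried a seed that no other mature miRNA of that RefSeq table shared. The last pair, miR-192-5p and miR-215-5p, shared 1 seed, and miR-215-5p is added for that reason.
hsa-miR-122-5p: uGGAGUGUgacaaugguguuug
hsa-miR-375-3p: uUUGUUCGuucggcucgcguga
hsa-miR-194-5p: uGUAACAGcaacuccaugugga
hsa-miR-192-5p: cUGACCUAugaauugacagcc
hsa-miR-215-5p: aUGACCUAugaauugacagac

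Over their 21 bases, miR-192-5p and miR-215-5p differed at 2 positions, C1A and C20A, counted from the 5′ end with the base of miR-192-5p first. Reads of such a pair can be hard to assign, and the counts of both were not whole numbers in 5 of 12 libraries, against 0 of 12 for each of the other 5 miRNA. How many reads fit both was not measured here.

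In GRCh38, miR-122-5p lies at chr18:58451088-58451109 on the plus strand, in an exon of the long noncoding RNA MIR122HG, with the miRNA gene MIR3591 on the opposite strand. miR-375-3p lies at chr2:219001648-219001669 on the minus strand, outside annotated genes, with CFAP65 at 1137 bases from the precursor and CRYBA2 at 8222 bases. miR-192-5p lies at chr11:64891203-64891223 on the minus strand, in an exon of the long noncoding RNA MIR194-2HG. miR-194-5p has 2 loci with 1 and the same mature sequence, so its counts pool both. The locus at chr11:64891404-64891425, on the minus strand, is in an exon of MIR194-2HG, and 108 bases separate the precursors of MIR194-2 and MIR192. The other, at chr1:220118206-220118227 on the minus strand, is in an intron of IARS2 on the opposite strand, and 194 bases separate its precursor from MIR215. The precursor MIR483, which gives both miR-483-3p and miR-483-5p, lies at chr11:2134134-2134209 on the minus strand in an intron of IGF2 and of the readthrough gene INS-IGF2, on the same strand.

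Between 703415 counts (hiPSC-EV 1) and 6272455 counts (CMm-EV 2) fell on miRNA per library. The other totals were 2511807 and 5598291 in hiPSC-EV, 1680153, 3380608 and 1539043 in CPC-EV, 2163510, 1686607 and 1364735 in CMi-EV, and 984865 and 5072948 in CMm-EV. Levels are given as CPM, the counts scaled to a common library size, with scaling factors by TMM (trimmed mean of M-values) from all 12 libraries. A count of 0 allows up to 3 counts, from 0.626 CPM in hiPSC-EV 3 to 4.02 CPM in hiPSC-EV 1. Such floors and the counting intervals given for ratios cover counting error only, since the reads were amplified without molecular identifiers. Of the 1133 miRNA, 367 reached 5 CPM in all 3 libraries of some group and are called expressed, and the 6 were all among them.

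The library CMi-EV 3 stood apart from CMi-EV 1 and CMi-EV 2 in several of the 6 miRNA, with more miR-122-5p, miR-194-5p and miR-483-5p and less miR-375-3p. On the scale of log2(CPM + 1), miR-483-5p exceeded the mean of the other 2 CMi-EV libraries by 3.66, miR-122-5p by 2.49 and miR-194-5p by 2.41. These were ranks 21, 36 and 37 of the 367 expressed miRNA when ordered from the largest excess. miR-375-3p differed by -1.66, miR-192-5p by 0.47 and miR-483-3p by 1.84, the last with 0 counts in CMi-EV 1 and a higher level in CMi-EV 2. Across expressed miRNA, CMi-EV 3 had Pearson's r of 0.848 and 0.844 with CMi-EV 1 and CMi-EV 2, against 0.878 between those libraries (across miRNA, which are not independent replicates). Other libraries differed from the rest of their group as well. CMm-EV 3 exceeded the other CMm-EV libraries on the same scale by 2.86 in miR-483-3p, 2.62 in miR-375-3p and 1.72 in miR-122-5p, and was 2.06 lower in miR-194-5p. The largest differences came with 0 counts, -6.11 for miR-483-5p in CMm-EV 1 and -5.31 for miR-483-3p in CMi-EV 1. CMm-EV 1 had an r of 0.885 and 0.887 with CMm-EV 2 and CMm-EV 3, which had 0.932 with each other. hiPSC-EV 1, the library with the fewest miRNA counts, had an r of 0.912 and 0.909 with hiPSC-EV 2 and hiPSC-EV 3, against 0.970 between those. CPC-EV 3 had an r of 0.870 and 0.876 with CPC-EV 1 and CPC-EV 2, against 0.909 between those.

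**Figure D1:**
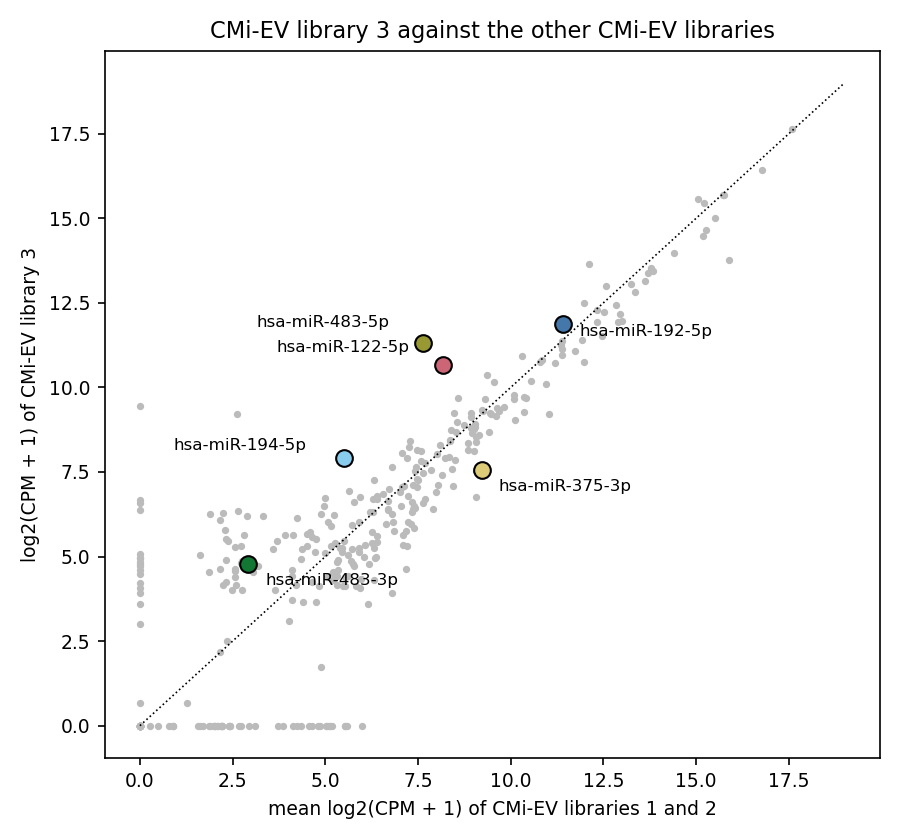
Levels of the 367 expressed miRNA in CMi-EV 3 (vertical axis, log2(CPM + 1)) against the mean of CMi-EV 1 and CMi-EV 2 (horizontal axis, same unit), with the 6 miRNA in colour, all others in grey and equality as a dotted line. miR-483-5p, miR-122-5p and miR-194-5p lie above the line by 3.66, 2.49 and 2.41, and miR-375-3p lies below it by 1.66.

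miR-122-5p, the hepatocyte miRNA, was almost absent from hiPSC-EV and present in every library of the 3 later stages. It had 0 counts in hiPSC-EV 1 and hiPSC-EV 2, and 6 counts (1.25 CPM) in hiPSC-EV 3. In CPC-EV 1, 2 and 3 it reached 563, 1359 and 527 CPM. In CMi-EV it stood at 330, 253 and 1621 CPM, and in CMm-EV at 497, 244 and 1151 CPM. All 9 later libraries thus lay above all hiPSC-EV libraries, while CPC-EV, CMi-EV and CMm-EV overlapped each other. The group means were 817 ± 470 CPM (SD, n = 3) in CPC-EV, 735 ± 769 CPM in CMi-EV and 631 ± 468 CPM in CMm-EV, an order in which no neighbours differed beyond their spread. Without CMi-EV 3 the CMi-EV mean was 291 CPM, the lowest of the 3. Among the 367 expressed miRNA, its group mean ranked 354 in hiPSC-EV, and then 59, 56 and 63 at the later stages. In bulk EV samples, a change in the number of releasing cells of a type cannot be told apart from a change in the RNA released per cell.

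miR-375-3p, which restrains insulin secretion in islet cells, was the only one of the 6 whose levels separated all 4 groups. In hiPSC-EV it stood at 29.5, 117 and 73.2 CPM. In CPC-EV it reached 5311, 5356 and 3129 CPM. It lay at 626, 565 and 188 CPM in CMi-EV, and at 3.86, 2.89 and 25.8 CPM in CMm-EV. The order was CPC-EV, CMi-EV, hiPSC-EV and CMm-EV, and no group overlapped another. Its mean in CPC-EV was 4599 ± 1273 CPM (SD, n = 3), which placed it at rank 26 of 367, and its rank was 188 in hiPSC-EV, 75 in CMi-EV, and 242 at the last stage. The CMm-EV values rested on 4, 12 and 74 counts. How many of the 367 expressed miRNA also separated all 4 groups was not counted, so this is not shown to be particular to miR-375-3p.

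miR-192-5p, found in gut, liver and kidney, was high at every stage, hiPSC-EV included. It stood at 1407, 1904 and 2055 CPM in hiPSC-EV and at 2420, 3026 and 3177 CPM in CPC-EV. In CMi-EV it was at 3102, 2372 and 3767 CPM, and in CMm-EV at 1646, 1720 and 2744 CPM. The hiPSC-EV libraries lay below all CPC-EV and CMi-EV libraries but overlapped CMm-EV, and the 3 later groups overlapped each other. The group means, from 1789 ± 339 CPM (SD, n = 3) in hiPSC-EV to 3080 ± 698 CPM in CMi-EV, ranked between 31 and 52 of 367.

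miR-194-5p, the cluster partner of miR-192-5p, showed no stage at which it was higher or lower throughout. It stood at 64.3, 81.2 and 74.3 CPM in hiPSC-EV and at 53.4, 72.7 and 127 CPM in CPC-EV. It was at 30.2, 65.0 and 241 CPM in CMi-EV and at 74.3, 69.1 and 16.4 CPM in CMm-EV. Every pair of groups overlapped, and both the highest and the lowest library were of the cardiomyocyte stages, CMi-EV 3 and CMm-EV 3. The means ran from 53.3 ± 32.1 CPM (SD, n = 3) in CMm-EV to 112 ± 113 CPM in CMi-EV, at ranks 137 to 189. Without CMi-EV 3 the CMi-EV mean was 47.6 CPM, so that the highest mean became the lowest.

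miR-483-5p, from the intron of IGF2, was found in all CPC-EV and CMi-EV libraries and was near 0 in hiPSC-EV. It had 0 counts in hiPSC-EV 1 and 2 and 23 counts (4.80 CPM) in hiPSC-EV 3, and stood at 280, 175 and 366 CPM in CPC-EV. In CMi-EV it was at 296, 134 and 2526 CPM, and in CMm-EV at 0, 108 and 42.5 CPM. CPC-EV and CMi-EV overlapped, both lay above all hiPSC-EV and CMm-EV libraries, and hiPSC-EV and CMm-EV overlapped. The CMi-EV mean of 985 ± 1336 CPM (SD, n = 3) rested on CMi-EV 3, since the other CMi-EV libraries lay within or below the range of CPC-EV and had a mean of 215 CPM.

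miR-483-3p, the other arm of the same hairpin, was the lowest of the 6. It had 0, 0 and 1 counts in hiPSC-EV and 71, 42 and 44 counts in CPC-EV (32.7, 11.5 and 18.1 CPM). In CMi-EV it had 0, 115 and 45 counts (0, 56.6 and 26.3 CPM), and in CMm-EV 0, 0 and 18 counts (6.27 CPM in CMm-EV 3). CPC-EV was the only group with counts in all 3 libraries, and it lay above all hiPSC-EV and CMm-EV libraries, while CMi-EV overlapped every group. Its group means ranked between 231 and 359 of 367.

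**Figure D2:**
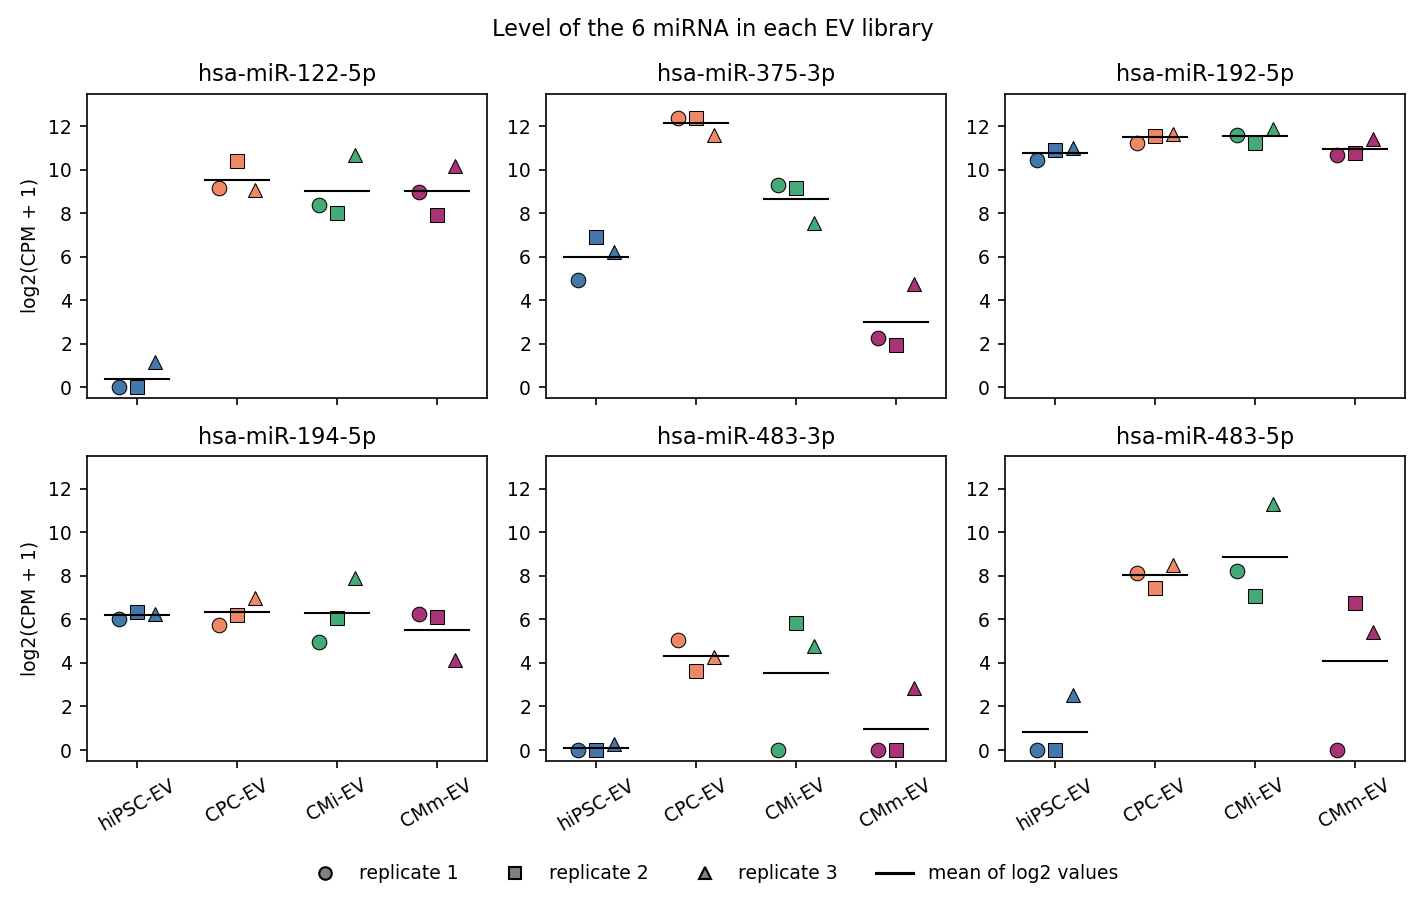
Level of each of the 6 miRNA in the 12 libraries (log2(CPM + 1), 1 panel per miRNA), with 1 symbol per replicate and a line at the mean of the log2 values of each EV group. miR-375-3p is highest in CPC-EV (3129 to 5356 CPM) and lowest in CMm-EV (2.89 to 25.8 CPM), while miR-122-5p is near 0 in hiPSC-EV and lies between 244 and 1621 CPM in all other libraries.

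The 6 miRNA together took a small share of the miRNA counts, and which of them made up that share changed with the stage. They held 0.159% to 0.189% of the miRNA counts in hiPSC-EV and 1.08% to 1.16% in CPC-EV. In CMi-EV they held 0.423%, 0.415% and 1.05%, and in CMm-EV 0.142% to 0.234%. CPC-EV libraries lay above all others, and CMi-EV 3 was close to them. In hiPSC-EV, miR-192-5p was 90.6% to 93.8% of the summed level of the 6. In CPC-EV, miR-375-3p took 61.3%, 53.6% and 42.6% of it, and miR-192-5p 27.9%, 30.3% and 43.3%, so that miR-192-5p was slightly ahead in CPC-EV 3. In CMi-EV 1 and 2, miR-192-5p was again at 70.8% and 68.8%, while CMi-EV 3 had 45.02% of miR-192-5p, 30.2% of miR-483-5p and 19.4% of miR-122-5p. In CMm-EV, miR-192-5p (68.9% to 80.2%) and miR-122-5p (11.4% to 28.9%) made up most of the sum.

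**Figure D3:**
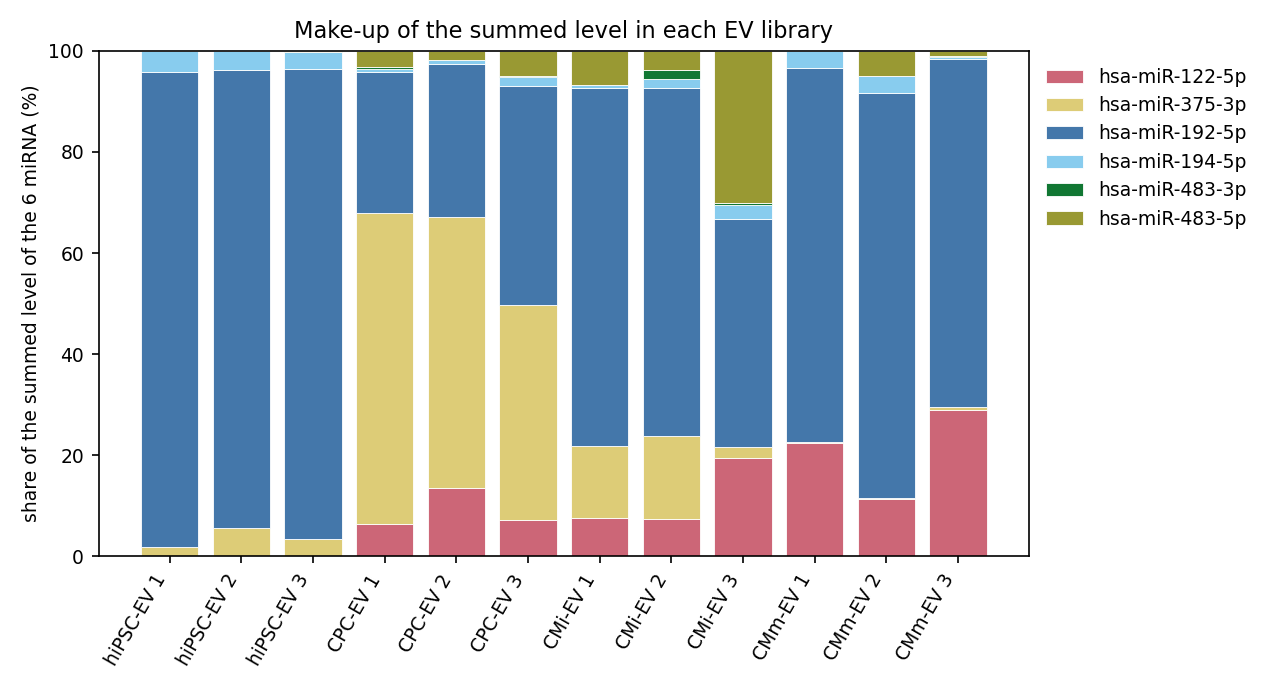
Share of each of the 6 miRNA in their summed level (percent, vertical axis) in each of the 12 EV libraries, as stacked bars. miR-375-3p takes 42.6% to 61.3% in CPC-EV, and miR-192-5p takes at least 68.9% in every hiPSC-EV and CMm-EV library.

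Fold changes were estimated between each stage and the one before it with the quasi-likelihood method of edgeR, on miRNA that reached 5 CPM throughout 1 or both of the groups compared. A miRNA was called when its false discovery rate (Benjamini-Hochberg) was 0.05 or lower and its log2 fold change was 1 or more, upward or downward. Since the 6 miRNA were chosen with these comparisons known, their fold changes carry a standard error and no p-value. The marker miRNA and transcripts named below were also chosen with earlier results known, so their adjusted p-values are a description too.

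From hiPSC-EV to CPC-EV, miR-375-3p had a log2 fold change of 6.32 ± 0.40 (SE, n = 3 per group), rank 9 of 338 tested miRNA from the highest. For miR-122-5p, with 7458 counts in CPC-EV and 6 in hiPSC-EV, the ratio of levels was 1163 (95% counting interval 534 to 3170), and the fitted log2 fold change was 10.40 ± 0.91, rank 2. miR-483-5p had a log2 fold change of 7.30 ± 1.09. For miR-483-3p, with 157 counts against 1, the ratio was 147 (95% counting interval 25.99 to 5839). miR-192-5p had a log2 fold change of 1.05 ± 0.23, close to the threshold of 1, and its call was lost without hiPSC-EV 1 (0.88), hiPSC-EV 2 (1.01) or CPC-EV 3 (0.94). miR-194-5p had a log2 fold change of 0.60 ± 0.61. These stand beside a median of -0.27 over all 338 tested miRNA. All counts of miR-122-5p, miR-483-3p and miR-483-5p in hiPSC-EV came from hiPSC-EV 3. Without it, their levels in CPC-EV were at least 882-fold, 18.6-fold and 253-fold higher, against a floor of 3 counts over the other 2 libraries. Of the 6, all tested, 5 were called and all of them higher, in a comparison that called 27.5% of the tested miRNA, and the other settings and left-out libraries called between 3 and 5. Where fewer than 5 were called, those lost were miR-192-5p, miR-483-3p or both.

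From CPC-EV to CMi-EV, miR-375-3p was lower, at a log2 fold change of -3.09 ± 0.41 (SE, n = 3 per group), and -2.75 without CMi-EV 3. miR-192-5p stood at 0.38 ± 0.25, and at -0.11 when libraries were scaled by their size alone. For 3 others the direction depended on CMi-EV 3. miR-122-5p stood at 0.22 ± 0.80 with it and at -1.28 without it, and at 0.87 without CPC-EV 2. Its direction also turned with the replicate number as a block (-0.32) and when libraries were scaled by their size alone (-0.19). miR-194-5p changed from 0.75 ± 0.89 to -0.63 without CMi-EV 3. miR-483-5p changed from 2.21 ± 1.05 to -0.18 without the same library. miR-483-3p stood at 0.69 ± 1.61, and at -0.27 without CMi-EV 2, which held most of its CMi-EV counts. The median over all 292 tested miRNA was -0.05. Of the 6, all tested, 1 was called, miR-375-3p, in a comparison that called 28.4%, and the other settings and left-out libraries called 1 or 2.

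From CMi-EV to CMm-EV, miR-375-3p was lower again, at a log2 fold change of -5.34 ± 0.88 (SE, n = 3 per group), rank 13 of 247 from the lowest. Without CMm-EV 3, the library with most of its CMm-EV counts, the value was -7.10. miR-483-5p stood at -4.51 ± 1.52, and at -2.05 without CMi-EV 3, -3.93 without CMm-EV 1 and -5.66 without CMm-EV 2. miR-192-5p stood at -0.66 ± 0.31, beside a median of -0.30 over the 247 tested miRNA, and at -1.26 beside -0.91 when libraries were scaled by their size alone, a setting in which it was called. miR-194-5p stood at -1.26 ± 1.02 with CMi-EV 3 and at 0.37 without it. For miR-122-5p, the value of -0.38 ± 0.90 became 1.21 without CMi-EV 3, -1.16 without CMm-EV 3 and 0.01 without CMm-EV 2. miR-483-3p did not pass the filter on low levels. Of the 6, 5 were tested and 1 was called, miR-375-3p, in a comparison that called 16.6%. Without CMm-EV 1, and with the replicate number as a block, miR-375-3p was no longer called although its values were -4.98 and -6.07, and the other settings and left-out libraries called 1 or 2. Over the 3 comparisons, miR-375-3p kept its direction in each of the 13 other settings and left-out libraries.

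**Figure D4:**
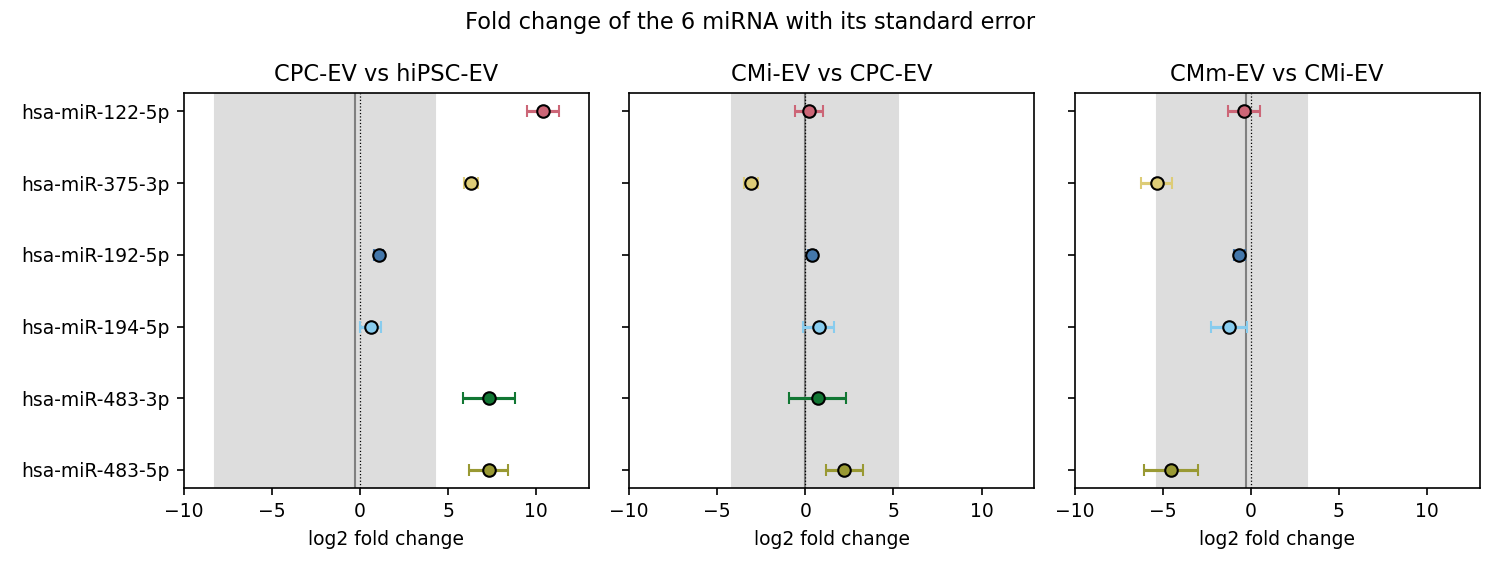
Log2 fold change (horizontal axis) of the 6 miRNA in the 3 comparisons of successive stages, with bars of 1 standard error, the median of all tested miRNA as a grey line and their 5th to 95th percentile as a grey band. miR-375-3p stands at 6.32, -3.09 and -5.34; miR-483-3p has no value in the last comparison.

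Partners of the same cluster did not keep 1 ratio. The level of miR-192-5p was 15.7 to 168 times that of miR-194-5p, with a median of 26.4 over the 12 libraries. The extremes were CMi-EV 3 (15.7) and CMm-EV 3 (168), and CMi-EV 1 had a ratio of 103. Across the 12 libraries, Pearson's r between miR-192-5p and miR-194-5p was 0.14 on log2(CPM + 1), with Spearman's rho 0.14. Both arms of miR-483 had counts in 7 libraries, in which miR-483-5p was 2.37 (CMi-EV 2) to 96.1 (CMi-EV 3) times miR-483-3p. Their r over 12 libraries was 0.69 (rho 0.61).

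miR-215-5p, which shares the seed of miR-192-5p and is clustered with MIR194-1, was low until the last stage. It stood at 2.68, 1.83 and 2.92 CPM in hiPSC-EV, at 2.76, 6.04 and 4.10 CPM in CPC-EV and at 4.31, 3.94 and 4.67 CPM in CMi-EV. In CMm-EV it stood at 17.4, 40.0 and 91.2 CPM, above all other libraries. It rose from CMi-EV to CMm-EV by a log2 fold change of 3.46 ± 0.87 (edgeR's quasi-likelihood test, Benjamini-Hochberg adjusted p = 0.0466), and 4 of 13 alternatives called it, with adjusted p from 0.00231 to 0.363. The call was lost without CMi-EV 1 (edgeR's adjusted p = 0.145), CMi-EV 2 (0.147), CMi-EV 3 (0.0933), CMm-EV 2 (0.0947) or CMm-EV 3 (0.162). The log2 fold change was 2.64 without CMm-EV 3, and 3.34 to 3.64 without each of the others just named. The part of reads that fit both miRNA in this change was not tested. miR-192-5p was 30.1 to 94.8 times as high as miR-215-5p in CMm-EV and 501 to 1038 times in all other libraries. Of the 4 opposite arms looked up (miR-122-3p, miR-375-5p, miR-192-3p and miR-194-3p), only miR-194-3p was listed, at 6.88 CPM in hiPSC-EV 2, 15.4 CPM in CPC-EV 2 and 0 elsewhere.

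Over the 12 libraries, the 6 miRNA did not follow 1 pattern. Among their 15 pairs, Pearson's r on log2(CPM + 1) ran from -0.04 (miR-122-5p with miR-194-5p) to 0.84 (miR-192-5p with miR-483-5p, rho 0.89). miR-122-5p and miR-375-3p had an r of 0.28 (rho 0.42), and the r of miR-194-5p with any of the others was at most 0.23. These correlations are a description over 4 groups of 3 libraries, which share stage and depth.

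Among the 367 expressed miRNA, the levels most like those of miR-375-3p were those of miR-484 (r = 0.89), miR-4745-5p (r = 0.87) and miR-7706 (r = 0.85), all over 12 libraries. miR-122-5p was most like miR-3605-3p (r = 0.89), miR-1269a (r = 0.88) and miR-145-3p (r = 0.88), which were lowest in hiPSC-EV and present in all 9 later libraries. miR-192-5p was most like miR-483-5p (r = 0.84), miR-501-3p (r = 0.81) and miR-500a-3p (r = 0.81). miR-483-5p was most like miR-500a-3p (r = 0.87), miR-192-5p (r = 0.84) and miR-502-3p (r = 0.84). miR-483-3p was most like miR-1263 (r = 0.77), miR-708-3p (r = 0.74) and miR-502-3p (r = 0.72). For miR-194-5p the highest values were lower, with miR-708-5p (r = 0.65), miR-4286 (r = 0.63) and miR-548b-5p (r = 0.60). With another pseudocount or with Spearman's rho, the 3 names remained the same in only 2 of 12 cases, and for miR-122-5p Spearman's rho gave 0 of the 3.

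Transcript fragments (gencode) of the same libraries gave values for host genes and for cell types other than cardiomyocytes. Their counts ran from 131318 in CMm-EV 1 to 1908309 in hiPSC-EV 3, so low transcripts rested on few reads. Their TMM factors ran from 0.2905 in hiPSC-EV 3 to 2.897 in CMm-EV 1, so that the order of list sums can depend on the scaling. As a check of the stages, 16 of 18 cardiomyocyte genes were listed, with TTN, the giant sarcomere protein, as the most abundant. Their summed level was 86.9, 205 and 61.3 CPM in hiPSC-EV, 2101, 1793 and 2348 CPM in CPC-EV, 12085, 15541 and 9910 CPM in CMi-EV, then 7685, 10570 and 7120 CPM in CMm-EV. The 11 pluripotency genes, led by LIN28A, summed to 1062, 1925 and 2511 CPM in hiPSC-EV, and to 2.63, 35.5 and 5.87 CPM in CMm-EV. By library size without TMM, a scaling chosen after seeing the data, the cardiomyocyte sums were 14951, 13729 and 15425 CPM in CMi-EV and 22259, 16611 and 8262 CPM in CMm-EV. CMi-EV 3, the library with most miR-122-5p and miR-483-5p, thus had the lowest cardiomyocyte sum of its group with TMM and the highest without it, above all CPC-EV libraries either way. From hiPSC-EV to CPC-EV, all 3 cardiomyocyte genes tested (ACTC1, MYH6 and TTN) were called higher, and 2 of 10 pluripotency genes (L1TD1 and NANOG) lower. From CPC-EV to CMi-EV, 6 of 10 cardiomyocyte genes (MYH6, MYH7, MYL3, TNNI1, TNNT2 and TTN) were called higher, and 1 of 3 pluripotency genes (PODXL) lower. From CMi-EV to CMm-EV, edgeR called 0 of 11 cardiomyocyte genes, with 0 at an unadjusted p under 0.05, and DESeq2 called 0. These had a median log2 fold change of -0.14 beside -0.18 over all tested transcripts. At the step from CPC-EV to CMi-EV, the calls of MYH7 (without CPC-EV 1, 2 or 3), TNNI1 (CPC-EV 3, CMi-EV 1 or 2) and TNNT2 (CPC-EV 3 or any CMi-EV library) were lost, at edgeR's adjusted p of 0.0503 to 0.0842. Of all tested transcripts, 11.6% were called from hiPSC-EV to CPC-EV, 29.6% at the next step and 11.4% at the last. Without CPC-EV 2 or CPC-EV 3, edgeR called 0 transcripts at the first step, with 648 and 711 at an unadjusted p under 0.05, while DESeq2 called 440 with all libraries. The log2 fold change of TTN at that step was 3.77 ± 0.52, and 3.85 and 3.53 without these libraries (edgeR's adjusted p = 0.0515 and 0.0738).

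IGF2, the host of miR-483, had its counts mainly in CPC-EV and CMi-EV, the stages in which miR-483-5p was highest. Its counts were 0, 0 and 1 in hiPSC-EV, 19, 123 and 0 in CPC-EV, 61, 13 and 95 in CMi-EV and 0 in every CMm-EV library. Within CMi-EV, the library order was the same for IGF2 (111, 29.5 and 279 CPM) and miR-483-5p (296, 134 and 2526 CPM). In CPC-EV, however, the library order was reversed, with IGF2 at 26.7, 105 and 0 CPM and miR-483-5p at 280, 175 and 366 CPM. In CMm-EV 2, miR-483-5p was at 108 CPM with 0 counts of IGF2. From CMi-EV to CMm-EV, IGF2 was at least 51.9-fold lower (edgeR's quasi-likelihood test, Benjamini-Hochberg adjusted p = 0.0497). It was called by 5 of 12 alternatives, with adjusted p from 0.000134 to 0.482, and the call was lost without CMm-EV 1 (edgeR's adjusted p = 0.0597), CMm-EV 2 (0.0671) or CMm-EV 3 (0.0666). H19, the noncoding neighbour of IGF2, had 0 counts in hiPSC-EV, 35, 85 and 82 in CPC-EV, 0, 8 and 53 in CMi-EV, with 0 in all CMm-EV libraries. It rose from hiPSC-EV to CPC-EV, at least 33.7-fold (edgeR's quasi-likelihood test, Benjamini-Hochberg adjusted p = 0.0307, called by 5 of 13 alternatives, adjusted p from 4.42e-05 to 0.332). That call was lost without hiPSC-EV 2 (edgeR's adjusted p = 0.0816), hiPSC-EV 3 (0.0776), CPC-EV 2 (0.0515) or CPC-EV 3 (0.0738). Of 18 host and neighbour genes looked up, 6 were listed, and MIR122HG and MIR194-2HG, the hosts of miR-122, miR-192 and miR-194, were not among them.

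Liver and yolk sac transcripts stood at low counts in the libraries that held miR-122-5p. Of 20 genes, 9 were listed, ALB, TTR and APOA1 not among them, and 0 of 20 passed the filter for testing. Their summed level was 3.22, 2.36 and 7.22 CPM in hiPSC-EV, 5.62, 53.6 and 163 CPM in CPC-EV, 1.81, 0 and 144 CPM in CMi-EV and 0, 21.7 and 61.6 CPM in CMm-EV. The most abundant was APOB, an apolipoprotein, with 60 counts in CPC-EV 2, 111 in CPC-EV 3, 33 in CMi-EV 3, 1 in hiPSC-EV 2 and 0 in the 8 other libraries. CMi-EV 3, with the most miR-122-5p of its group, was the CMi-EV library with APOB and with SERPINA1 (15 counts). In CPC-EV, by contrast, CPC-EV 3 had both the highest sum of the list and the least miR-122-5p of its group (527 CPM), and CPC-EV 2 had the most miR-122-5p (1359 CPM). In CMi-EV 1 and CMi-EV 2, with 330 and 253 CPM of miR-122-5p, the whole list had 1 and 0 counts. In CMm-EV 3, with the most miR-122-5p of its group, the whole sum of 61.6 CPM was AHSG, a plasma protein of the liver, with 21 counts there and 0 in the 11 other libraries. AFP had at most 9 counts in any library, and HNF4A at most 3. The part of liver-like cells in the level of miR-122-5p was not tested.

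Early endoderm transcripts had their highest group mean in CPC-EV, where miR-375-3p was also highest, and the CPC-EV libraries lay above hiPSC-EV but overlapped CMi-EV and CMm-EV. Of 13 genes, 6 were listed, SOX17, FOXA2 and CER1 not among them, with a summed level of 51.5, 9.45 and 9.02 CPM in hiPSC-EV and 223, 346 and 59.7 CPM in CPC-EV. In CMi-EV the sum was 219, 152 and 0 CPM, and in CMm-EV 121, 69.1 and 61.6 CPM. By library size without TMM, the group means were close, 188 CPM in CPC-EV and 177 CPM in CMm-EV. CMm-EV 1 then had the highest sum of any library (350 CPM). The most abundant, GATA6, which also acts in cardiac mesoderm, had 94, 185 and 1 counts in CPC-EV, 0, 25 and 0 in CMi-EV, and 10, 35 and 21 in CMm-EV. EOMES, of mesendoderm, had 25, 63 and 0 counts in CPC-EV and 0 in all other libraries. Others went another way, with 0, 33 and 39 counts of PRDM1 in CPC-EV and 121, 42 and 0 in CMi-EV, and with all 35 counts of FOXA1 in CMm-EV 1. From hiPSC-EV to CPC-EV and from CPC-EV to CMi-EV, 0 of the 13 genes passed the filter for testing. From CMi-EV to CMm-EV only GATA6 was tested, and it was not called. CPC-EV 3 held the most APOB of its group, and its miR-375-3p (3129 CPM) was the lowest of its group. Of 15 gut and pancreas genes, 4 were listed, with at most 2 counts of any gene in any library, LGALS4 the most abundant, and with PDX1, CDX2, GCG and SST not listed. The part of endoderm in the level of miR-375-3p in CPC-EV was not tested.

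**Figure D5:**
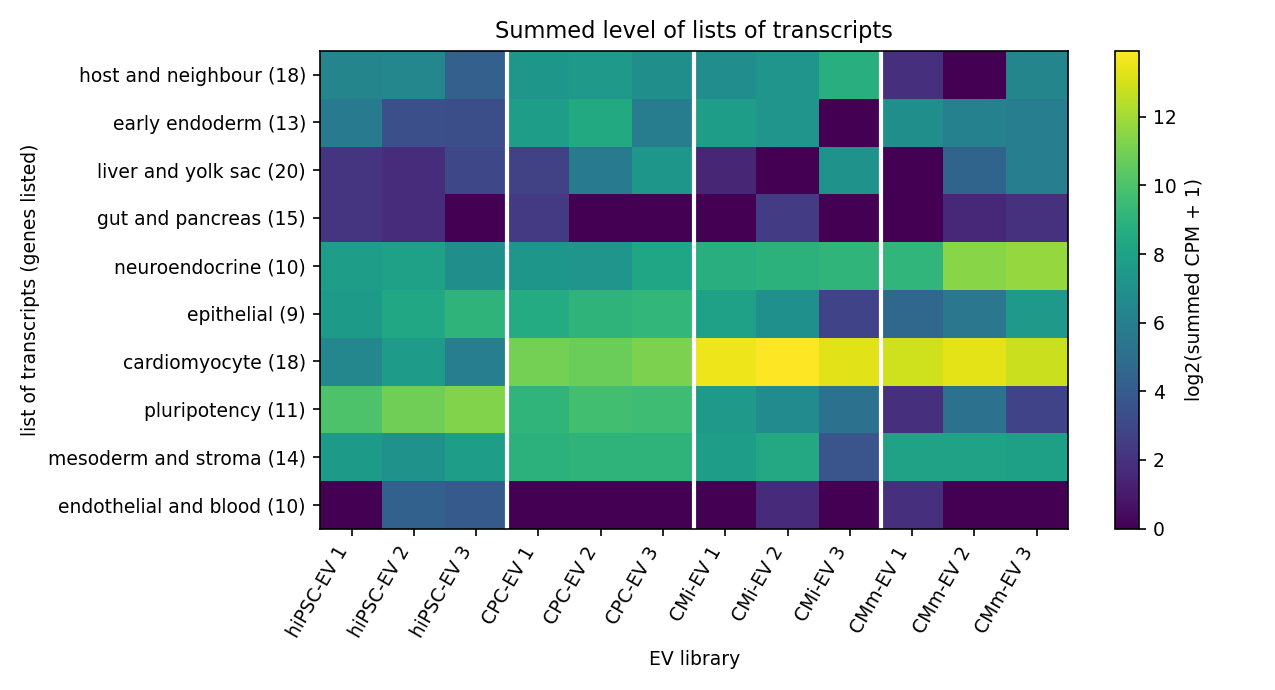
Summed level of 10 lists of transcripts (rows, number of genes looked up in brackets) in the 12 EV libraries (columns), as log2(summed CPM + 1) in colour. Gut and pancreas genes are near 0 in every library, liver and yolk sac genes are highest in CPC-EV 3 (163 CPM) and CMi-EV 3 (144 CPM), and cardiomyocyte genes are higher in every CMi-EV and CMm-EV library (7120 to 15541 CPM) than in the others.

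miR-375 is also found in neuroendocrine and epithelial cells. Of 10 neuroendocrine genes, 6 were listed, and 91.1% of their level was PCSK2, a prohormone convertase. Their summed level was 212, 250 and 119 CPM in hiPSC-EV, 167, 150 and 296 CPM in CPC-EV, 428, 496 and 549 CPM in CMi-EV and 578, 2771 and 3402 CPM in CMm-EV. SYP, a synaptic vesicle protein and the other gene tested, had log2 fold changes of -1.05 ± 1.59, 2.28 ± 1.03 and -2.68 ± 1.62 at the 3 steps. It was called by edgeR at none of them, while DESeq2 called 2 of 2 neuroendocrine genes from CPC-EV to CMi-EV. PCSK2 itself was called higher at each of the last 2 steps, CPC-EV to CMi-EV and CMi-EV to CMm-EV, with log2 fold changes of 1.80 ± 0.52 and 2.82 ± 0.62, but in only 2 and 5 of 13 alternatives (highest adjusted p 0.456 and 0.482). Each of the 6 libraries of the first comparison, and each but CMi-EV 3 of the second, lost the call when left out. Without them, edgeR's adjusted p ran from 0.0528 to 0.189 and from 0.0506 to 0.0905. Of 9 epithelial genes, 8 were listed. Their summed level was 193, 331 and 523 CPM in hiPSC-EV, 379, 541 and 595 CPM in CPC-EV, 245, 127 and 5.87 CPM in CMi-EV and 23.7, 45.4 and 182 CPM in CMm-EV. By library size without TMM, it was 195, 168 and 152 CPM in hiPSC-EV and 337, 484 and 558 CPM in CPC-EV. These groups thus overlapped with TMM but not without it. KRT8, a keratin of simple epithelia and the most abundant, had 94, 351 and 183 counts in CPC-EV and at most 42 in any other library. With TMM, KRT18 and KRT19 also had higher means in CPC-EV than in hiPSC-EV. Those of EPCAM, CDH1, CLDN6, ESRP1 and ESRP2 were lower. Of the 5 epithelial genes tested from hiPSC-EV to CPC-EV, edgeR and DESeq2 each called 0. The median log2 fold change of the 5 epithelial genes tested from hiPSC-EV to CPC-EV was 0.22, beside -0.11 over all tested transcripts. The part of epithelial cells in the level of miR-375-3p was not tested.

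Other miRNA of endodermal organs were compared with miR-122-5p and miR-375-3p. Of 5 liver miRNA looked up 4 were listed, and miR-148a-3p, with 98.7% of their level, was at 14512 to 21261 CPM in hiPSC-EV and at 3905 to 5147 CPM in CMm-EV. It fell from CMi-EV to CMm-EV by 1.37 ± 0.16 on the log2 scale (edgeR's quasi-likelihood test, Benjamini-Hochberg adjusted p = 0.00153), called in 13 of 13 alternatives with adjusted p from 4.73e-11 to 0.0182. The group means of miR-148a-5p also fell, from 327 CPM in hiPSC-EV to 32.96 CPM in CMm-EV. Those of miR-885-5p did not, at 11.3, 20.1, 7.22 and 16.8 CPM from hiPSC-EV to CMm-EV. miR-885-5p stood at 60.3 CPM in CPC-EV 3, with 0 counts in CPC-EV 1, CPC-EV 2 and CMi-EV 3. miR-885-3p had counts in CMm-EV 3 alone (5.92 CPM). Neither arm of miR-885 passed the filter for testing. Of 7 pancreas miRNA 2 were listed, and miR-7-5p, of endocrine cells, fell from hiPSC-EV to CPC-EV by 2.27 ± 0.38 on the log2 scale while miR-375-3p was higher (edgeR's quasi-likelihood test, Benjamini-Hochberg adjusted p = 0.00568). It was called in 12 of 13 alternatives, with adjusted p from 5.83e-07 to 0.0645. miR-216b-3p, the only acinar miRNA listed, had counts in 1 library, CPC-EV 1 (21.7 CPM). Of 4 miRNA of early endoderm 3 were listed, with a summed level of 364, 476 and 264 CPM in CPC-EV and at most 193 CPM in any other library. Among them, miR-489-3p was at 0, 31.6 and 18.4 CPM in hiPSC-EV, at 112, 104 and 44.7 CPM in CPC-EV and at 0 counts in all CMi-EV and CMm-EV libraries. From hiPSC-EV to CPC-EV, edgeR did not call miR-489-3p (log2 fold change 2.74 ± 1.17), while DESeq2 called it. It fell from CPC-EV to CMi-EV, at least 172-fold (edgeR's quasi-likelihood test, Benjamini-Hochberg adjusted p = 0.00564), called in 13 of 13 alternatives with adjusted p from 6.39e-09 to 0.0431. miR-708-5p, the most abundant of that list, stood at 158, 246 and 145 CPM in CPC-EV, above its 21.4, 38.1 and 116 CPM in hiPSC-EV, and overlapped CMi-EV (38.3, 155 and 79.4 CPM). edgeR called miR-708-5p at none of the 3 steps, while DESeq2 called all 3 miRNA of the list from hiPSC-EV to CPC-EV.

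miR-122 and miR-192 also circulate in blood, so 8 miRNA of blood and serum were looked up, of which 6 were listed, with a summed level of 6239 to 8594 CPM in hiPSC-EV and of 624 to 2289 CPM in the later libraries. The most abundant, miR-486-5p, is also a muscle miRNA. It stood at 6120, 8198 and 8454 CPM in hiPSC-EV and at 1080, 904 and 1272 CPM in CPC-EV. It fell by 2.43 ± 0.24 on the log2 scale between these groups (edgeR's quasi-likelihood test, Benjamini-Hochberg adjusted p = 0.000664), called in 13 of 13 alternatives with adjusted p from 3.48e-24 to 0.0067. miR-451a, of red blood cells, stood at 0, 5.04 and 5.01 CPM in hiPSC-EV and was higher in 2 CPC-EV libraries (49.3, 33.5 and 0 CPM). It had 0 counts in CMi-EV and at most 1.93 CPM in CMm-EV. miR-144-3p had counts in CPC-EV 2 alone (11.5 CPM). The group means of miR-126-3p were 51.1, 43.3, 41.8 and 10.2 CPM from hiPSC-EV to CMm-EV. miR-486-3p and miR-150-5p had their highest group means in hiPSC-EV (42.6 and 28.7 CPM). Of 10 endothelial and blood transcripts, 2 were listed, with a summed level of at most 18.9 CPM in any library. The part of blood or serum in the levels of miR-122-5p and miR-192-5p was not tested.

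Of 14 mesoderm and stroma transcripts, 11 were listed, led by COL1A1, and their summed level in CPC-EV, where miR-375-3p peaked, was 498, 530 and 524 CPM. In hiPSC-EV it was 193, 142 and 226 CPM, and in CMm-EV 255, 257 and 238 CPM. CPC-EV lay above all other libraries with TMM, but not by library size without it, where CMm-EV 1 had 739 CPM and CPC-EV 443, 475 and 491 CPM. In CMi-EV it was 227, 338 and 11.7 CPM, lowest in CMi-EV 3, the library with most miR-483-5p. The list had 5, 3 and 1 genes tested at the 3 steps, and 2, 1 and 1 were called, where 11.6%, 29.6% and 11.4% of all transcripts were. The median log2 fold change of the genes tested was 1.22 at the first step, beside -0.11 over all transcripts, and 0.63 at the next, beside -1.36. KDR and COL1A2, not called, stood at -2.70 ± 1.70 and -0.94 ± 1.82 at the first step. HAND2 and PDGFRA were called higher in CPC-EV than in hiPSC-EV (at least 58.4-fold and 16.5-fold), and HAND2 was then called lower in CMi-EV (ratio 0.0110, 95% counting interval 0.00133 to 0.0402) and higher in CMm-EV (ratio 78.8, 21.4 to 657). Each of these calls was lost without some single library, at edgeR's adjusted p of 0.0506 to 0.0968. For HAND2 these were hiPSC-EV 2 and 3 and CPC-EV 2 and 3 at the first step, CPC-EV 1 and 3 and CMi-EV 2 at the next, and CMi-EV 2 and CMm-EV 1 and 2 at the last. For PDGFRA they were all hiPSC-EV libraries, CPC-EV 2 and CPC-EV 3. CPC-EV 2 held 270 of the 350 HAND2 counts in CPC-EV. From CMi-EV to CMm-EV, the log2 fold change of HAND2 was 6.31 ± 1.36, and 5.36 without CMm-EV 1.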

How the data were processed

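Small RNA from EV of 4 stages, 3 libraries each, had been prepared with Norgen kits and sequenced on an Illumina instrument. The deposited expected counts of miRNA and of gencode transcripts were made by the authors' provider with the exceRpt pipeline on hg38, which splits reads that map to several places, so 9.108% of nonzero miRNA values were not whole (tolerance 1e-06). The deposited RPM values, scaled by the authors to a library total, served as an alternative for levels. The submitters' notes name edgeR 3.24.0 for the study's own tests.

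Here, expected counts were rounded, and gencode rows were summed over biotypes for each gene name. Each stage was compared with the one before it, on the 6 libraries of the pair, with the two-sided quasi-likelihood test of edgeR 4.0.16 in R 4.3.3 and TMM scaling. The filters kept miRNA with 5 CPM, or transcripts with 5 counts, throughout at least 1 of the groups. Calls needed a Benjamini-Hochberg false discovery rate of 0.05 or lower and a log2 fold change of 1 or more. The code was tested on simulated data. Correlations and figures used Python 3.11.15, numpy 2.4.6, pandas 2.3.3, scipy 1.17.1 and matplotlib 3.10.9, on log2(CPM + 1). Depth was 703415 to 6272455 miRNA counts and 131318 to 1908309 gencode counts per library. Where a group had 0 counts, folds were computed against 3 counts over the group, and ratios of few counts carry 95% counting intervals.

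The 6 miRNA and the lists of marker miRNA and transcripts were chosen with earlier results of these data known. Named besides the 6 miRNA are their other arms, miRNA that share a seed, the features of the lists that were called or most abundant, and for each of the 6 the 3 miRNA with the highest Pearson's r. APOB, SERPINA1, AFP, HNF4A, AHSG, EOMES, PRDM1, FOXA1, SYP, KDR, COL1A2, miR-216b-3p and miR-451a, and genes named as not listed, were added after their values were seen. The epithelial genes named besides KRT8 were added likewise. So were LHX1 and the less abundant miRNA of the liver list and of the blood and serum list. The alternatives were the median-of-ratios scaling, library size only, no filter, edgeR's filterByExpr, DESeq2 1.42.0, all 12 libraries in 1 fit, the replicate number as a block and each library left out, for list sums library size only (chosen after seeing the data), and, for correlations, a pseudocount of 0.1 and Spearman's rho. Other RNA classes and the authors' TMM-scaled tables were not used here.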

Additional observations from a re-analysis of the deposited data

How the results depend on the processing

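Counts of called miRNA were 93 from hiPSC-EV to CPC-EV, 83 from CPC-EV to CMi-EV and 41 from CMi-EV to CMm-EV, and those of transcripts were 285, 518 and 59. With filterByExpr, 27 miRNA were called at the last step, and 2, 5 and 0 transcripts at the 3 steps (at the last, 54 had an unadjusted p under 0.05 in edgeR, and DESeq2 called 86). With no expression filter, 56, 32 and 3 transcripts were called. DESeq2 called 440 transcripts at the first step, and the fit of all 12 libraries 106. With the replicate number as a block (replicate block), 39 miRNA were called at the first step and 17 at the last, and 0, 19 and 0 transcripts, with 476 and 78 at an unadjusted p under 0.05 where edgeR called 0. Libraries of different groups shared only the number: r between their deviations from the group mean ran from -0.116 to 0.128 across features, which are not independent replicates. Leaving out 1 library gave 75 to 129, 72 to 102 and 20 to 60 miRNA, lowest at the last step without CMm-EV 2 and highest without CMi-EV 3. For transcripts it gave 0 to 695, 612 to 1135 and 0 to 253, with 0 at the first step without CPC-EV 2 (648 at an unadjusted p under 0.05 in edgeR) or CPC-EV 3 (711), and 0 at the last without CMm-EV 1 (210 at an unadjusted p under 0.05 in edgeR) or CMm-EV 2 (146). Scaling by library size alone moved the median log2 fold change of miRNA from -0.27 to -0.10, from -0.05 to -0.52 and from -0.30 to -0.91, and that of transcripts at the first step from -0.11 to 0.82. It also moved the share of higher calls, to 31 of 87 (42 of 83 before) and 10 of 52 (16 of 41) miRNA at the last 2 steps, and to 196 of 352 (95 of 285) transcripts at the first. The cause was not tested. Of 221 values of the members' fold changes under alternatives, 209 moved by less than 1 SD and 12 by more. That SD is not the SE printed with the fold changes. A move within it could still turn the direction, as for miR-122-5p from CPC-EV to CMi-EV (0.22, and -0.19 by library size alone). Of 120 values of their group means, 111 moved by less than 1 SD and 9 by more. Floors of 0.626 to 4.02 CPM limit what can be said of miR-122-5p and miR-483 in hiPSC-EV, and floors of 2.55 to 9.65 CPM what can be said of liver, gut and endoderm transcripts.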
